A study of Sus scrofa with 9 samples.

Results

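The genes described here encode splicing factors and heterogeneous nuclear ribonucleoproteins (hnRNPs), the proteins that remove introns from pre-mRNA and coat nascent transcripts. They were chosen by gene symbol, with earlier results of these data known. Included were all measured genes whose symbol starts with SRSF or SFRS, SF3A, SF3B, U2AF, HNRNP, SNRP or PRPF, or with LSM followed by a digit. The rule found 46 genes, measured by 83 probes, of 7495 named genes and 23971 probes on the array. By role they were 5 SR proteins, 7 subunits of SF3 or U2AF, 9 Sm and other small nuclear ribonucleoprotein (snRNP) proteins, 4 LSm proteins, 10 PRPF proteins and 11 hnRNPs.

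The study compared porcine hatched blastocysts (HB) of different origin, with 3 arrays per group and 1 pool of 5 embryos per array. In vivo embryos (IVV HB) were flushed from inseminated gilts and labelled as collected 5.5 days after insemination, parthenogenetic embryos (PA HB) came from activated oocytes and carry no paternal genome, and chromatin transfer embryos (CT HB) were built with the nuclear genome of a somatic cell. Both of the latter groups grew in culture, and both are labelled as collected at 7 hours, a time at which no embryo has reached the blastocyst stage. The paper describes a culture of several days up to the hatched stage without the day on which each pool was taken, so their exact age is uncertain. Origin, culture and age therefore cannot be told apart between IVV HB and either other group. PA HB and CT HB share their label, and the paper states that oocyte maturation, activation and culture were the same for both. The pools are called biological replicates without a statement of whether they came from separate collections, so that p-values reflect no more than the spread among the pools at hand.

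Each value is a log2 ratio of the embryo pool, labelled with Cy5, over a common reference of oocytes and embryos up to day 11, labelled with Cy3. A value of 0 means the level of the reference, and values of different genes cannot be set against each other as transcript amounts. The dyes gave the direction of the ratio. Oocyte markers, which the reference holds, were used as a check, and 11 of 13 measured lay below 0 on all 9 arrays. The interquartile range over all genes was wider on the PA HB arrays (0.81 to 0.98) than on those of IVV HB (0.56 to 0.66) or CT HB (0.58 to 0.66). For the trophectoderm, the outer layer that forms most of a hatched blastocyst, the median of 9 measured markers was between 0.18 and 0.85 on every array. Of these 9 markers 1 lay below 0 on all arrays, and a ratio to a mixed reference does not by itself show that a tissue is present. Medians of the oocyte list were -3.42 to -2.78 in IVV HB, -2.38 to -2.16 in PA HB and -3.41 to -3.15 in CT HB, and those of 7 leukocyte genes were 0.11 to 0.26, 0.55 to 0.73 and 0.47 to 0.56.

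Splicing is carried out by the spliceosome, which is built on each intron from snRNPs, particles of a small nuclear RNA, a ring of Sm or LSm proteins and specific partners. SR proteins bind exons and mostly favour the use of nearby splice sites, whereas hnRNPs often oppose them, so that the balance of both families shapes alternative splicing. In the preimplantation embryo maternal splicing factors are replaced by newly transcribed ones at genome activation, and loss of core spliceosomal proteins in the mouse stops development before or around implantation.

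The 46 genes lay on both sides of the reference. *SRSF6* was above 0 on all 9 arrays, 14 genes were below 0 on all of them, and 31 were above it on some arrays and below on others. Group means above 0 were found for 20 genes in IVV HB, 13 in PA HB and 12 in CT HB. The median over the 46 genes was -0.01, -0.14 and -0.16 on the IVV HB arrays, -0.37, -0.52 and -0.29 on the PA HB arrays, and -0.32, -0.18 and -0.15 on the CT HB arrays. All 3 PA HB arrays thus lay below the 3 IVV HB arrays, while the CT HB arrays overlapped with both groups. Over all genes these medians ran from -0.06 to -0.05 in IVV HB, from -0.15 to -0.09 in PA HB and from -0.06 to -0.05 in CT HB. The median within-group SD of the 46 genes was 0.29 in IVV HB, 0.26 in PA HB and 0.17 in CT HB.

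**Figure D1:**
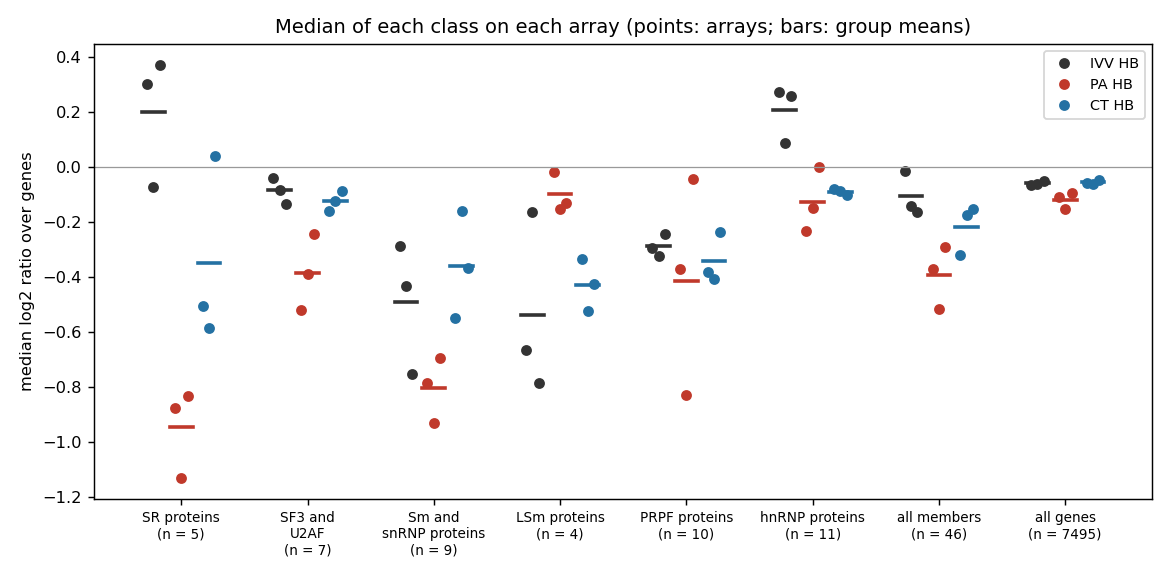
Median log2 ratio of embryo pool over reference on each array, by class of gene, for the 46 splicing factor and hnRNP genes together and for all 7495 genes, with points for arrays and bars for the mean of 3 arrays. The medians of the SR class lie between -1.13 and -0.83 in PA HB, below all IVV HB and CT HB arrays, and hnRNP medians are above 0 on the IVV HB arrays and between -0.10 and -0.08 in CT HB.

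Comparison of PA HB with IVV HB asked how transcripts of the splicing machinery differ in embryos without a paternal genome after culture. A gene was called when limma, fitted on all arrays, gave it an adjusted p no higher than 0.05 over the 7495 genes together with a change of 2-fold or more. By this rule *SRSF11*, *SF3B1*, *HNRNPR* and *HNRNPH1* were lower in PA HB, and *SRSF6* and *LSM11* were higher. These 6 genes are 13.0% of the 46, beside 7.71% of all genes called in this comparison, 4.34% higher and 3.38% lower. At the adjusted p alone 10 of the 46 passed, 8 of them lower, where 13.9% of all genes passed. The log2 difference was below 0 for 32 of the 46 genes (69.6%, against 49.3% of all genes), with a median of -0.28 beside 0.01 over all genes, and for 28 genes after quantile or scale normalization between arrays. In 19 genes (41.3%) the 3 arrays of 1 group lay apart from those of the other, 16 of them (beside 15.7% of all genes) with PA HB below, while 30.8% of all genes had arrays apart. Since each array held RNA of whole embryos, fewer cells of a type and less RNA per cell cannot be told apart. The oocyte list differed between the same groups, with 7 of 13 genes called, and so did 3 of 7 leukocyte and 2 of 9 trophectoderm genes. Their part in the differences was not tested.

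In CT HB against IVV HB, *HNRNPAB* alone of the 46 genes was called, as lower, which is 2.17% beside 0.654% of all genes, 0.574% higher and 0.0801% lower. No other member passed at the adjusted p alone, a criterion met by 0.801% of all genes. Differences were below 0 for 32 of 46 genes (69.6%, against 52.2% of all genes), with a median of -0.20 beside -0.01 over all genes. Arrays lay apart in 15 genes (32.6%), 13 of them with CT HB lower, beside 19.2% of all genes and 9.37% lower. The same IVV HB arrays served in both comparisons, so the shared downward direction is no independent observation. In this comparison 0 of 13 oocyte, 2 of 7 leukocyte and 0 of 9 trophectoderm genes were called, and their part was not tested.

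**Figure D2:**
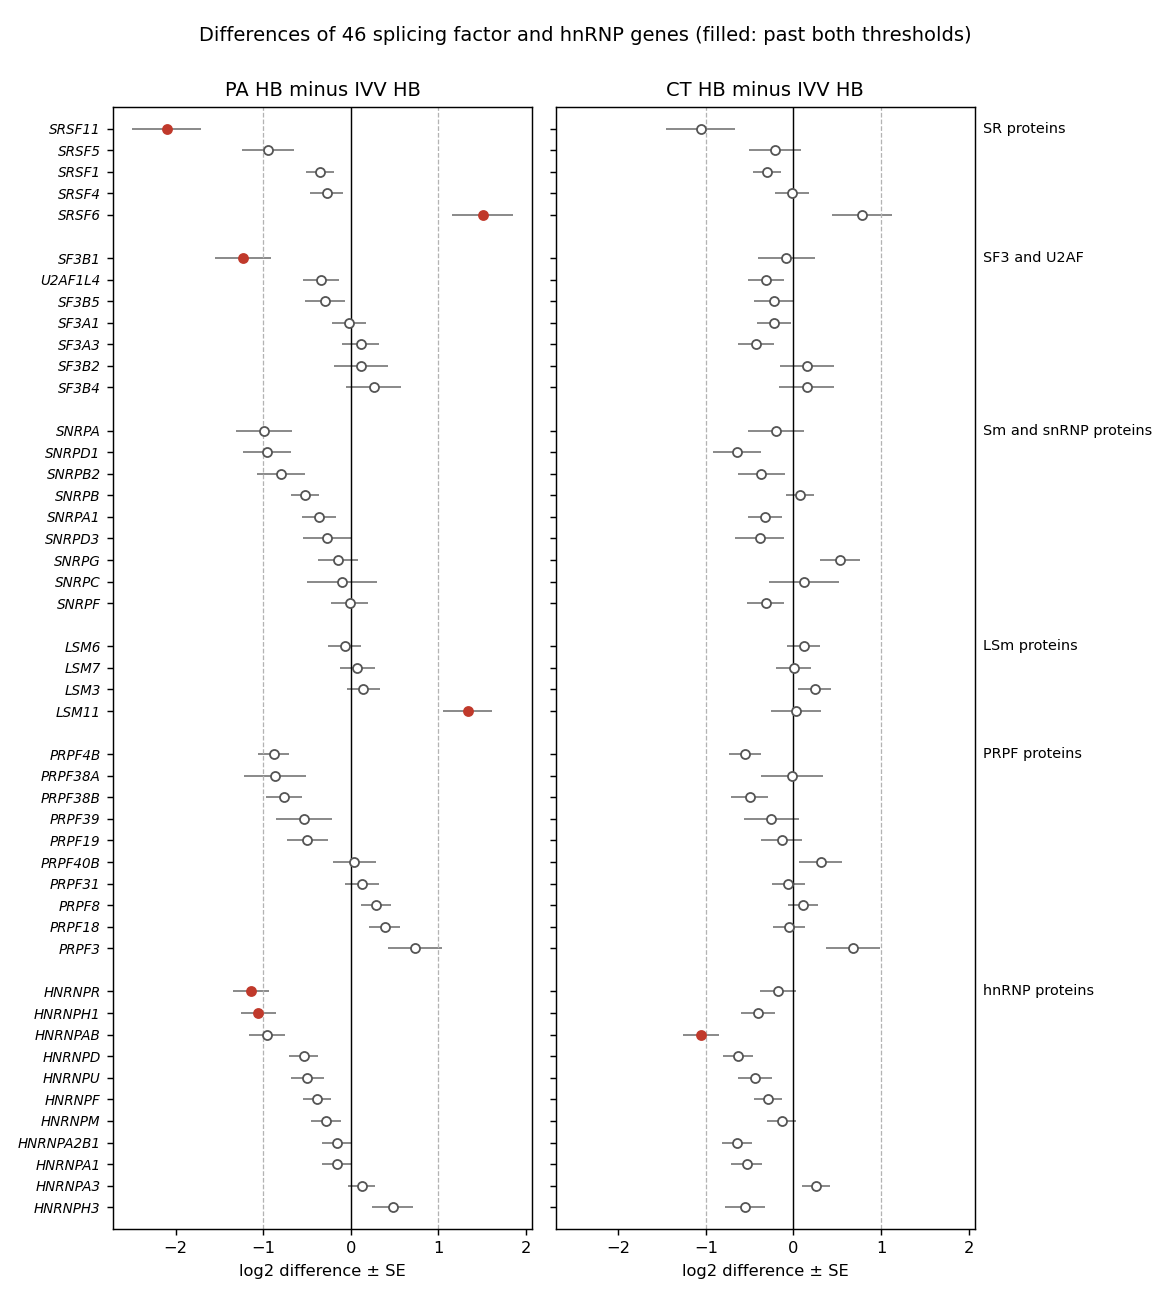
Log2 difference from IVV HB of each of the 46 genes with its standard error from limma, by class and in the order of the PA HB difference, with filled points for genes past both thresholds and dashed lines at a fold change of 2. PA HB differences span -2.10 (*SRSF11*) to 1.51 (*SRSF6*), CT HB differences -1.06 (*SRSF11*) to 0.79 (*SRSF6*).

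Among the SR proteins *SRSF11*, an arginine- and serine-rich factor of the spliceosome, had the widest difference of all 46 genes. Its log2 ratio was 1.30, -0.07 and 0.55 on the IVV HB arrays, -1.49, -2.21 and -0.83 on the PA HB arrays, and -0.85, -0.59 and 0.04 on the CT HB arrays. Every PA HB array was below every IVV HB array. CT HB lay between them by its mean, overlapping with IVV HB at its upper end and with PA HB at its lower end. The level in PA HB was 4.30-fold lower than in IVV HB (log2 difference -2.10, SE 0.39, limma adjusted p = 0.0071). The CT HB difference of -1.06 had an adjusted p of 0.31 in limma, and its 95% interval ran from -1.92 to -0.20. *SRSF11* was called in PA HB under every alternative setting and without any 1 array, with differences from -2.44 to -1.75 when arrays were left out.

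*SRSF6* (SRp55), a regulator of alternative exons, went the other way. It stood at 0.49, 1.27 and 0.82 in IVV HB, at 2.48, 1.79 and 2.83 in PA HB and at 1.03, 2.32 and 1.58 in CT HB. All PA HB arrays were above all IVV HB arrays, and the CT HB arrays spread across both. Against IVV HB the level of *SRSF6* in PA HB was 2.84-fold higher (log2 difference 1.51, SE 0.35, limma adjusted p = 0.017), but only 0.69 and 0.85 higher after quantile or scale normalization between arrays (adjusted p = 0.17 and 0.16), and it was not called without IVV HB 1, IVV HB 3 or PA HB 3 (adjusted p up to 0.078).

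*SRSF5* (SRp40) lay at -0.58 ± 0.59 in IVV HB, -1.53 ± 0.30 in PA HB and -0.80 ± 0.41 in CT HB (mean ± SD, n = 3). Its arrays did not overlap between PA HB and IVV HB, but the difference of -0.94 missed the threshold (SE 0.30, limma adjusted p = 0.059). For *SRSF1* (ASF/SF2), the founding member of the family, all PA HB arrays (-0.03 to 0.20) and all CT HB arrays (0.08 to 0.16) were below those of IVV HB (0.30 to 0.61), with adjusted p values of 0.17 and 0.52. *SRSF4* (SRp75) differed by -0.27 in PA HB and -0.02 in CT HB and passed no test. Of the SR genes 1 was called lower, 1 higher and 3 were not called in PA HB, where 7.71% of all genes were called. In CT HB 0 of 5 were called, beside 0.654% of all genes.

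**Figure D3:**
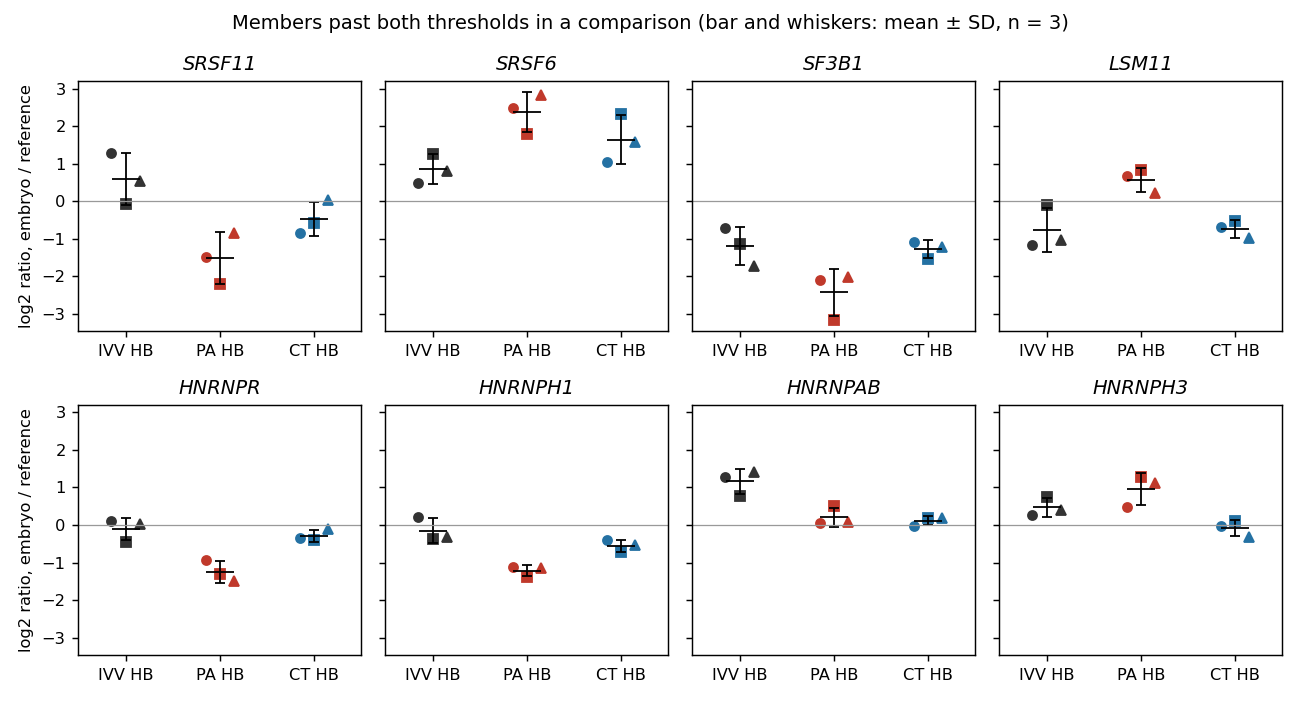
Log2 ratio of embryo pool over reference on each array for the 8 genes past both thresholds in at least 1 of the 3 comparisons, with circles, squares and triangles for arrays 1, 2 and 3 of each group, and a bar with whiskers for mean ± SD (n = 3). *SRSF11*, *SF3B1*, *HNRNPR* and *HNRNPH1* have all PA HB arrays below the IVV HB arrays, *SRSF6* and *LSM11* above them, and *HNRNPAB* lies at -0.02 to 0.50 in PA HB and CT HB against 0.78 to 1.42 in IVV HB.

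SF3A and SF3B are parts of the U2 snRNP that hold the branch point of the intron, and U2AF reads the end of the intron. *SF3B1*, the largest subunit of SF3B, was below the reference everywhere: -0.71, -1.15 and -1.72 in IVV HB, -2.11, -3.16 and -2.02 in PA HB, and -1.08, -1.53 and -1.20 in CT HB. The PA HB arrays were the lowest and did not overlap with either other group, whereas IVV HB and CT HB overlapped. The level was 2.35-fold lower in PA HB than in IVV HB (log2 difference -1.23, SE 0.32, limma adjusted p = 0.027) and 2.22-fold higher in CT HB than in PA HB (1.15, adjusted p = 0.034). This call was among the least stable, with adjusted p = 0.12 without IVV HB 1, 0.059 without IVV HB 2, 0.088 without PA HB 2, and a difference of -0.43 (adjusted p = 0.38) after scale normalization. The call between CT HB and PA HB was lost without PA HB 2, CT HB 1 or CT HB 3 (adjusted p up to 0.12) and after scale normalization (0.39, adjusted p = 0.43).

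Other subunits of the same complexes were not called. *SF3B5* differed between PA HB and IVV HB by -0.30, *SF3A1* by -0.02, *SF3A3* by 0.11, *SF3B2* by 0.12 and *SF3B4* by 0.26, with limma adjusted p values from 0.42 to 0.96. *U2AF1L4*, a relative of the small U2AF subunit, stood at 0.11 to 0.16 on the IVV HB arrays, -0.68 to 0.14 in PA HB and -0.29 to -0.12 in CT HB. Its CT HB arrays were all below those of IVV HB, with a difference of -0.32 (adjusted p = 0.64). *SF3A3* was the one gene of this class with CT HB below PA HB on all arrays, at -1.90 to -1.64 against -1.58 to -0.95 (difference -0.54, adjusted p = 0.11). After scale normalization *SF3A3* was called, with CT HB below PA HB.

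The Sm proteins form the ring around most spliceosomal RNAs, and SNRPA, SNRPC, SNRPA1 and SNRPB2 are partners specific to U1 or U2. All 9 genes of this class were below IVV HB in PA HB, with a median difference of -0.36, beside 49.3% of all genes below. Yet 0 of 9 were called, beside 7.71% of all genes, and 1, *SNRPD1*, passed at the adjusted p alone, beside 13.9%. The direction held for 8 of 9 genes after centring of the arrays and for 6 of 9 after quantile or scale normalization. In CT HB 6 of 9 were below IVV HB, with a median of -0.32 and none called, where 52.2% of all genes were below and 0.654% were called.

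*SNRPD1*, a subunit of the Sm ring, was at -1.49, -0.67 and -0.78 in IVV HB, -1.73, -2.52 and -1.57 in PA HB, and -1.56, -1.57 and -1.74 in CT HB. All PA HB and CT HB arrays were below those of IVV HB, although IVV HB 1 lay near the CT HB arrays. Its difference was -0.96 in PA HB (SE 0.27, limma adjusted p = 0.040) and -0.65 in CT HB (adjusted p = 0.40). *SNRPA*, which binds U1 RNA, reached 0.97 in IVV HB 1 and -0.43 in IVV HB 2, and lay between -1.22 and -0.36 in PA HB and between 0.00 and 0.15 in CT HB. With that spread in IVV HB, the difference of -0.99 had an adjusted p of 0.060, and *SNRPA* was called when IVV HB 2 or PA HB 1 was left out. *SNRPB*, the SmB protein, was lower on all PA HB arrays (-0.77 to -0.50) than on those of IVV HB (-0.24 to 0.05) and CT HB (-0.10 to 0.07). It was higher in CT HB than in PA HB at the adjusted p alone (difference 0.60, SE 0.16, adjusted p = 0.029) and missed it for PA HB against IVV HB (-0.52, adjusted p = 0.051).

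*SNRPB2*, which binds U2 RNA, differed in PA HB by -0.80 with arrays apart, without passing (limma adjusted p = 0.074). *SNRPG* was the Sm gene with the largest difference in the other direction in CT HB, at 0.53 above IVV HB (adjusted p = 0.41) and 0.68 above PA HB (adjusted p = 0.070). *SNRPF*, *SNRPC* and *SNRPD3* differed by -0.01, -0.10 and -0.27 in PA HB. Their 95% intervals, -0.47 to 0.45, -0.97 to 0.77 and -0.87 to 0.33, leave room for changes of either sign.

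LSm proteins 3, 6 and 7 belong to the rings on U6 RNA and on decaying mRNA, whereas LSM11 is part of the U7 snRNP, which trims histone pre-mRNA and takes no part in splicing. *LSM11* was -1.17, -0.09 and -1.02 in IVV HB, 0.67, 0.84 and 0.22 in PA HB, and -0.69, -0.52 and -0.98 in CT HB. The PA HB arrays were the only ones above 0, and CT HB lay within the range of IVV HB. In PA HB the level was 2.53-fold above IVV HB (log2 difference 1.34, SE 0.28, limma adjusted p = 0.012) and in CT HB 2.48-fold below that of PA HB (-1.31, adjusted p = 0.011). Without IVV HB 1 the first call had an adjusted p of 0.057, and without CT HB 3 the second had 0.061. *LSM3*, *LSM6* and *LSM7* differed from IVV HB by -0.07 to 0.14 in PA HB and by 0.00 to 0.24 in CT HB, and none of them was called.

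The PRPF proteins act at different steps, and 0 of 10 genes were called in any comparison of the main fit. Over all genes 7.71% were called in PA HB and 0.654% in CT HB against IVV HB, and 7.78% between CT HB and PA HB. *PRPF4B*, a kinase that phosphorylates spliceosomal proteins, was -0.34, -0.43 and -0.64 in IVV HB, -1.27, -1.64 and -1.15 in PA HB, and -0.93, -1.01 and -1.12 in CT HB. The 3 groups did not overlap on any array, with IVV HB highest and PA HB lowest. The difference of -0.88 in PA HB passed at the adjusted p but stayed under a fold change of 2 (SE 0.18, limma adjusted p = 0.0098), and that of -0.55 in CT HB did not pass (adjusted p = 0.23). *PRPF38B* was similar, with -0.76 in PA HB (adjusted p = 0.033) and -0.50 in CT HB (adjusted p = 0.39), and both groups below all IVV HB arrays.

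*PRPF38A*, a protein of the assembling spliceosome, was at -1.47 and -1.64 on 2 PA HB arrays but at -0.03 on PA HB 3, so its difference of -0.86 had an adjusted p of 0.13. Without PA HB 3 it was called in PA HB against IVV HB and in CT HB against PA HB. *PRPF3*, a protein of the U4/U6 particle, had the highest difference of the class, 0.73 in PA HB and 0.68 in CT HB (adjusted p = 0.14 and 0.45) beside an SD of 0.65 within IVV HB. *PRPF8*, the scaffold at the centre of the spliceosome, varied by an SD of 0.01 in IVV HB around -0.02 and was 0.29 higher in PA HB (adjusted p = 0.29). *PRPF18*, which acts in the second step of splicing, was 0.39 higher. *PRPF19*, a ubiquitin ligase, differed by -0.50, *PRPF39* by -0.53, *PRPF31* by 0.13 and *PRPF40B* by 0.04, all without passing.

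The hnRNPs were the largest class. In PA HB 9 of 11 were below IVV HB, with a median of -0.39, 2 called as lower (18.2%) and arrays apart in 6 (54.5%), all lower. These counts rest on means of probes. Single probes of *HNRNPA1*, *HNRNPA2B1*, *HNRNPA3*, *HNRNPAB*, *HNRNPD*, *HNRNPH3* and *HNRNPM* lay on both sides of 0 in PA HB against IVV HB. Over all genes 3.38% were called lower in this comparison, and 15.7% had arrays apart with PA HB lower. In CT HB 10 of 11 were below, with a median of -0.44 and 1 called (9.09%), and arrays were apart in 9 genes (81.8%), 8 of them lower. Over all genes 0.654% were called in this comparison, and 19.2% had arrays apart, 9.37% with CT HB lower. The CT HB median was -0.54 after quantile and -0.53 after scale normalization.

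*HNRNPR*, an RNA-binding protein of the nucleus and of transport granules in neurons, was 0.10, -0.45 and 0.02 in IVV HB, -0.94, -1.31 and -1.50 in PA HB, and -0.35, -0.40 and -0.10 in CT HB. PA HB was lowest on all arrays, and CT HB lay within the range of IVV HB. The level was 2.20-fold lower in PA HB than in IVV HB (log2 difference -1.14, SE 0.21, limma adjusted p = 0.0063). It was 0.97 higher in CT HB than in PA HB (adjusted p = 0.011), just under a fold change of 2. The PA HB call was kept without any 1 array, while scale normalization reduced the difference to -0.85 (adjusted p = 0.025).

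*HNRNPH1* and its relatives *HNRNPF* and *HNRNPH3* bind runs of G in pre-mRNA. *HNRNPH1* was 0.22, -0.38 and -0.31 in IVV HB, -1.12, -1.39 and -1.14 in PA HB, and -0.41, -0.73 and -0.55 in CT HB. The groups were apart, with IVV HB highest and PA HB lowest. Its level was 2.08-fold lower in PA HB (log2 difference -1.06, SE 0.20, limma adjusted p = 0.0071), and all 6 of its probes were lower, by -2.02 to -0.69. The fold change was near the threshold: without IVV HB 1 the difference was -0.87 and without PA HB 2 -0.97, and with the median of the probes it was -0.91, each with an adjusted p of at most 0.031. After quantile normalization it was -0.96 (adjusted p = 0.024) and after scale normalization -0.75 (adjusted p = 0.038), so the call was lost in all of these. In CT HB it was -0.40 (adjusted p = 0.49).

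*HNRNPAB*, which binds RNA and the editing enzyme of apolipoprotein B mRNA, was 1.29, 0.78 and 1.42 in IVV HB, 0.04, 0.50 and 0.07 in PA HB, and -0.02, 0.17 and 0.18 in CT HB. All 6 arrays of PA HB and CT HB were below those of IVV HB. The level was 2.07-fold lower in CT HB (log2 difference -1.05, SE 0.21, limma adjusted p = 0.045) and 1.95-fold lower in PA HB (-0.96, adjusted p = 0.013), which is under the fold threshold. The CT HB call was not made when IVV HB 1, IVV HB 3, PA HB 3 or any CT HB array was left out, with adjusted p values up to 0.18 and differences from -1.24 to -0.92.

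Of the remaining hnRNPs, *HNRNPD* (AUF1, a factor in mRNA decay) was 0.16 to 0.22 in IVV HB, -0.61 to -0.21 in PA HB and -0.57 to -0.33 in CT HB. Its differences of -0.54 and -0.63 had adjusted p values of 0.055 and 0.14 in limma, although both groups lay below all IVV HB arrays as means of probes. In PA HB its 2 probes differed by -1.24 and 0.16, and in CT HB by -0.65 and -0.61. *HNRNPU* (SAF-A), which also binds chromatin, differed by -0.50 and -0.44, *HNRNPF* by -0.39 and -0.29, and *HNRNPM* by -0.28 and -0.13 in PA HB and CT HB. *HNRNPA3* was the one hnRNP above IVV HB in CT HB, by 0.26, with arrays apart (adjusted p = 0.62).

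*HNRNPA1* and *HNRNPA2B1*, the most studied members, which can favour exon skipping in human cells, differed little in PA HB as means of their probes. *HNRNPA1* was 0.36 to 0.59 in IVV HB, 0.14 to 0.62 in PA HB and -0.09 to -0.04 in CT HB. *HNRNPA2B1* was 0.58 to 0.91, 0.42 to 0.71 and -0.02 to 0.30. As means of probes CT HB was thus below both other groups on all arrays for both genes, with differences from IVV HB of -0.54 and -0.64 (limma adjusted p = 0.23 and 0.14). In PA HB the difference was -0.16 for each.

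These small means hid opposite probes. For *HNRNPA2B1* the first of 5 probes was 0.69, 2.02 and 1.31 in IVV HB, 2.20, 3.87 and 3.73 in PA HB, and 0.69, 0.99 and 0.22 in CT HB, 1.93 higher in PA HB (limma per probe, adjusted p = 0.014). The fourth was 0.62, 0.76 and 0.80 in IVV HB, -0.65, -1.62 and -1.72 in PA HB, and -0.92, -0.62 and -0.33 in CT HB, 2.05 lower on the same arrays (difference -2.05, adjusted p = 0.0019). Both sets of arrays were apart between PA HB and IVV HB, in opposite directions. The other 3 probes differed by -0.44 to 0.18 and were not called. Between CT HB and PA HB the first probe differed by -2.63 (limma per probe, adjusted p = 0.0047) and the fourth by 0.71 (adjusted p = 0.11), so the lower mean in CT HB did not hold on every probe.

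*HNRNPA1* showed the same pattern on 2 of its 3 probes, with 1.28 (limma per probe, adjusted p = 0.029) and -1.43 (adjusted p = 0.042). The lower value rested in part on PA HB 2, at -2.52 beside -0.42 and -0.78 on the other PA HB arrays. Between CT HB and PA HB these 2 probes differed by -1.88 (limma per probe, adjusted p = 0.0055) and 0.80 (adjusted p = 0.25). Among the 18 genes with several probes, 9 had probes on both sides of 0 in PA HB against IVV HB, and *HNRNPA1* and *HNRNPA2B1* were the 2 whose probes passed the adjusted p in opposite directions. In CT HB against IVV HB 7 genes had probes on both sides and 0 had opposite probes past the threshold. The median distance between the lowest and the highest probe of a gene was 1.15 in PA HB against IVV HB, 0.37 in CT HB against IVV HB and 0.99 in CT HB against PA HB.

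**Figure D4:**
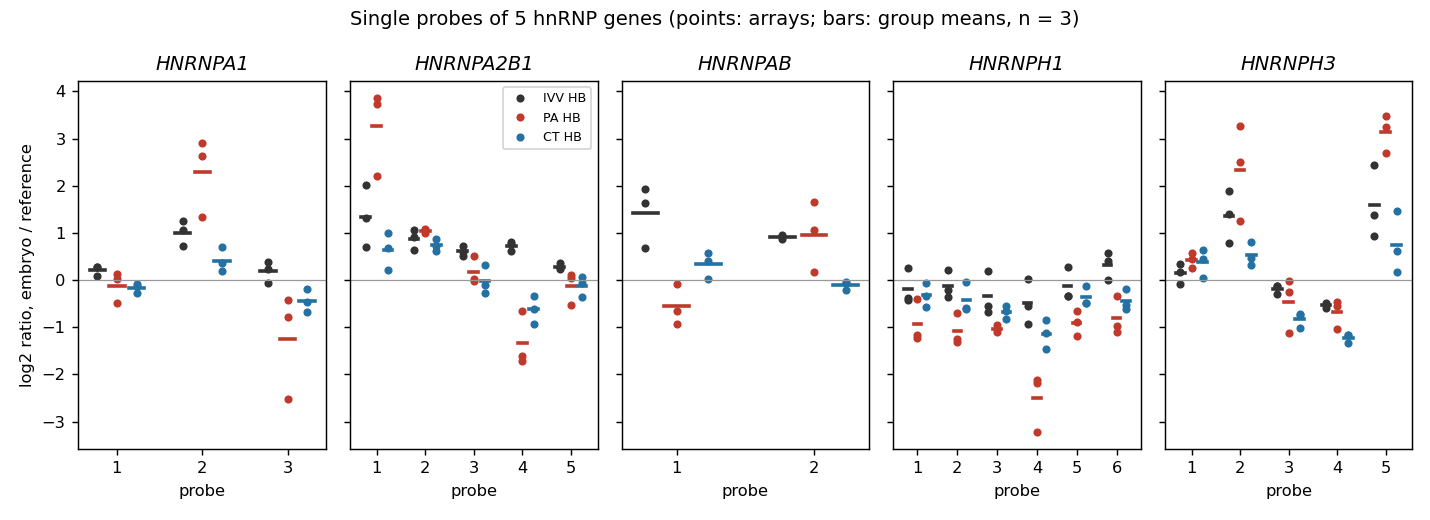
Log2 ratio of embryo pool over reference on each array for the single probes of 5 hnRNP genes, with points for arrays and bars for group means (n = 3), and probes numbered within each gene. Probes 1 and 4 of *HNRNPA2B1* move in opposite directions in PA HB, with differences of 1.93 and -2.05, while all 6 probes of *HNRNPH1* lie lower in PA HB than in IVV HB.

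Taken probe by probe, 16 of the 83 probes passed both thresholds in PA HB against IVV HB, 5 higher and 11 lower, beside 9.43% of all probes. Lower probes belonged to 10 genes. Besides *SRSF11*, *SF3B1*, *HNRNPR*, *HNRNPH1*, *HNRNPA1* and *HNRNPA2B1* these were *HNRNPAB* (-1.98, adjusted p = 0.0038), *HNRNPD* (-1.24, 0.0032), *HNRNPM* (-1.01, 0.037) and *SNRPA1* (-1.30, 0.0087), each with at least 1 other probe that was not called. *HNRNPAB* was split in PA HB, as its second probe differed by 0.06, whereas in CT HB its probes agreed at -1.08 and -1.02. In PA HB the other probe of *HNRNPD* differed by 0.16 and the highest of *HNRNPM* by 0.41, while those of *SNRPA1* ran from -1.30 to -0.02. In CT HB against IVV HB 0 of 83 probes were called, beside 0.513% of all probes.

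A set of 645 probes on the array (2.69%) followed 1 common profile over the 9 arrays, at a correlation of at least 0.95 with the mean of the probes of *ASAP3*, *IL12A*, *LIPE* and *KAT5*, genes with no shared role. Of the 83 probes 2 (2.41%) belonged to it, the first of *HNRNPA2B1*, whose values above show its shape, and the fifth of *HNRNPH3*, both with a correlation of 0.98. The higher probe of *HNRNPA1* had 0.95, just under the limit, *LSM11* 0.92 and *SRSF6* 0.63. Among the genes called lower in PA HB, *HNRNPR* had -0.93, *SF3B1* -0.82, *SRSF11* -0.71 and the probes of *HNRNPH1* -0.83 to -0.55. The part of this profile in the differences of these genes was not tested. Without its probes the same 6 genes were called in PA HB against IVV HB. None of these 6 had a probe in the set, so their differences could not change and the result says nothing about the profile.

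Between CT HB and PA HB 3 of the 46 genes were called (6.52%, beside 7.78% of all genes, 2.95% higher and 4.83% lower), with *SF3B1* higher in CT HB and *LSM11* and *HNRNPH3* lower. At the adjusted p alone 6 passed, where 14.4% of all genes did, with *HNRNPR*, *HNRNPH1* and *SNRPB* added as higher in CT HB. The difference was below 0 for 17 genes (37.0%, against 50.1% of all genes), with a median of 0.09. Arrays were apart in 14 genes (30.4%), beside 31.2% of all genes, with CT HB lower in 6, beside 16.2%. By probe 2 were called higher and 8 lower, beside 8.85% of all probes. After scale normalization the median was -0.01, so no direction is given for the 46 genes between these groups. Of the oocyte list 10 of 13 genes were called here, of the leukocyte list 1 of 7 and of the trophectoderm list 0 of 9, and their part was not tested.

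*HNRNPH3* was 0.28, 0.76 and 0.39 in IVV HB, 0.47, 1.28 and 1.10 in PA HB, and -0.03, 0.10 and -0.31 in CT HB. CT HB was below all arrays of both other groups. Against PA HB the CT HB level was 2.04-fold lower (log2 difference -1.03, SE 0.23, limma adjusted p = 0.014), but its 5 probes ranged from -2.38 to -0.06. The 2 called probes were at 1.25 to 3.47 in PA HB and at 0.18 to 1.45 in CT HB. With the median of the probes the difference was -0.11 (adjusted p = 0.77), and without its probe of the common profile -0.69 (adjusted p = 0.059). It was -0.60 after quantile (adjusted p = 0.077) and -0.82 after scale normalization (adjusted p = 0.031), so neither kept the call. It was also lost without PA HB 2, PA HB 3 or CT HB 3, with an adjusted p up to 0.072.

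Other genes of the pathway were taken from a list of 176 spliceosome, exon junction, mRNA export and splicing regulator genes outside these symbols, of which 101 were measured. In PA HB against IVV HB 5 were higher and 5 lower (9.90%, beside 7.71% of all genes), with a median of -0.14 beside 0.01 over all genes. That median was -0.05 after quantile and 0.02 after scale normalization, beside 0.02 and 0.05 over all genes, so its direction did not hold. In CT HB against IVV HB 0 of 101 were called by limma (beside 0.654% of all genes), 0 passed at the adjusted p alone (beside 0.801%), and the median was -0.06, beside -0.01 over all genes. In CT HB against PA HB 2 were higher and 4 lower (5.94%, beside 7.78% of all genes), with a median of 0.10. It was 0.07 after quantile and -0.05 after scale normalization, so no direction is given for these genes between CT HB and PA HB.

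The lower genes in PA HB included *SNRNP27*, a protein of the tri-snRNP, at 0.11, -0.21 and -0.32 in IVV HB, -1.78, -1.47 and -1.38 in PA HB, and 0.04, -0.76 and -0.69 in CT HB (difference -1.41, limma adjusted p = 0.0042). *SART3*, which recycles U4 and U6, was 0.81 to 1.10 in IVV HB, -0.57 to -0.38 in PA HB and -0.28 to 0.61 in CT HB (-1.37, adjusted p = 0.0042). Both kept their calls without any 1 array and after quantile or scale normalization. *EIF4A3*, the helicase of the exon junction complex, was 1.42 lower in PA HB (difference -1.42, adjusted p = 0.0096) and 1.45 higher in CT HB than in PA HB (adjusted p = 0.0078). *EWSR1*, an RNA-binding protein of the FET family, fell by 1.03 (adjusted p = 0.0092), a call lost without IVV HB 1 or PA HB 3, and that of *EIF4A3* was lost after scale normalization (-0.78, adjusted p = 0.053). *DDX39B* (UAP56), a helicase of early spliceosome assembly and mRNA export, fell by 1.44 (adjusted p = 0.043), a call lost without any of 7 of the 9 arrays.

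By adjusted p the first of the higher genes in PA HB was *MBNL3*, a muscleblind regulator of alternative splicing, at -0.73, -0.12 and -0.21 in IVV HB, 1.28, 1.77 and 1.16 in PA HB, and 0.07, 0.09 and -0.02 in CT HB. Its PA HB level was 1.76 above that of IVV HB (limma adjusted p = 0.0017), and CT HB differed from PA HB by -1.36 (adjusted p = 0.0048), both without overlap. The call against IVV HB was kept without any 1 array and after quantile or scale normalization, while that between CT HB and PA HB fell under the fold threshold after quantile normalization (-0.97, adjusted p = 0.015). *BUD13*, a protein of the retention and splicing complex, rose by 1.12 (adjusted p = 0.0066), *TARDBP* (TDP-43) by 1.69 (adjusted p = 0.017), *DDX42*, a helicase associated with SF3B, by 2.27 (adjusted p = 0.017) and *THOC2*, of the mRNA export complex TREX, by 1.00 (adjusted p = 0.017). *DDX42* had a correlation of 1.00 with the common profile, *BUD13* and *TARDBP* of 0.91, *MBNL3* of 0.86 and *THOC2* of 0.58. Those of the lower genes ran from -0.89 (*EIF4A3*) to -0.56 (*DDX39B*). *DDX42*, *TARDBP* and *THOC2* were not called after quantile or scale normalization. *BUD13*, *TARDBP*, *DDX42* and *THOC2* were lost without IVV HB 1, *DDX42* and *TARDBP* also without PA HB 2 or PA HB 3, *DDX42* without IVV HB 3, and *THOC2* without IVV HB 2 or PA HB 1.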

How the data were processed

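RNA of each pool was amplified, labelled with Cy5 and hybridized against the Cy3-labelled reference on a custom porcine embryo array (EMPV1), without dye swaps. The authors corrected each array by simple background subtraction and global loess, and the deposited values are log2 ratios for 23971 probes, with 0 missing. Log base and direction were not written beside the values and were read from their range and from the dyes. Without spot intensities in use here, probes near background were kept, and the number of arrays limits the precision.

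The platform annotation named 10344 probes (43.2%), and 200 were renamed to current symbols through RefSeq accessions or synonyms of Sscrofa11.1, used for names only. Of the 46 genes 3, *SRSF1*, *SRSF4* and *SRSF6*, were annotated under older symbols. Probes of a gene were averaged, with 28 of the 46 genes measured by 1 probe and 18 by up to 6. Probe sequences were not used here, so cross-hybridization between paralogs or with pseudogenes, which are common among ribonucleoprotein genes, was not assessed.

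Group means were fitted on all 9 arrays with limma 3.58.1 under R 4.3.3 (moderated statistics, prior of 5.47 degrees of freedom beside 6 residual), two-sided, with Benjamini-Hochberg adjustment over all 7495 genes within each comparison. The fit was tested on simulated data. Intervals are 95% intervals of that fit. Named were all genes past both thresholds, the 2 highest and 2 lowest differences of each class in PA HB, genes with opposite probes, and up to 10 other splicing genes by adjusted p. The members and gene lists were chosen with earlier results of these data known. Other settings were a fit of 2 groups alone, a replicate block, centring, quantile and scale normalization, the median of probes, single probes, symbols as annotated, array weights, a variance filter, a robust prior, the omission of each array in turn and other thresholds. Leaving out the probes of the common profile was an alternative chosen after seeing the data.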

Additional observations from a re-analysis of the deposited data

How the results depend on the processing

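No direction was reversed in 220 repeats of single gene calls under other settings, of which 177 kept the call and 43 lost it. The 6 genes called in PA HB against IVV HB became 10 at the adjusted p alone, 3 at an adjusted p of 0.01 (*SRSF11*, *HNRNPR* and *HNRNPH1*), 13 counted by any probe, and 3 to 9 when 1 array was left out, with 3 without IVV HB 1. The single call in CT HB became 2 after quantile normalization (*SRSF6* added), 0 at 0.01, 0 by probe, and 0 to 1 without 1 array. The 3 calls between CT HB and PA HB became 6 at the adjusted p alone, 0 at 0.01, 9 by probe, and 0 to 4 without 1 array, with 0 without CT HB 3 and 1 without PA HB 2. The median difference of the 46 genes ran from -0.34 to -0.23 in PA HB and from -0.29 (without IVV HB 2) to -0.107 (without CT HB 2) in CT HB without 1 array, beside -0.28 and -0.20, and that between CT HB and PA HB from 0.04 to 0.14, and was -0.006 after scale normalization. Of the other splicing genes, the 10 called in PA HB became 6 after quantile and 6 after scale normalization, 17 at the adjusted p alone, 6 at 0.01, and 4 (without IVV HB 1) to 11 without 1 array. In CT HB 1 was called after quantile normalization, 1 after scale normalization and 1 by probe, in place of 0. Between CT HB and PA HB 3 were called after quantile normalization, 14 at the adjusted p alone, and 4 to 12 without 1 array, with 12 without CT HB 2, in place of 6. The causes were not tested.

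With the replicate number as a block, 6, 0 and 4 of the 46 genes were called in the 3 comparisons, the second without *HNRNPAB* (adjusted p = 0.062) and the last with *SRSF11* added. Of 9 pairs of same-numbered arrays 4, all with an IVV HB array, had deviations correlated above 0.1 (range of the 9 pairs -0.15 to 0.31). Different-numbered pairs ran from -0.42 to 0.26. These values do not settle whether the numbers pair the pools, and the main fit took no pairing.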
